A study of Equus caballus with 45 samples.

Results

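Prostaglandin E2 (PGE2) is a lipid mediator of joint inflammation and pain, and it is also one of the factors through which mesenchymal stromal cells (MSC) are known to act on immune cells. Phospholipases release arachidonic acid from membrane lipids, the cyclooxygenases PTGS1 and PTGS2 turn it into prostaglandin H2, and the terminal synthases PTGES, PTGES2 and PTGES3 make PGE2 from that. PGE2 acts through receptors that include PTGER2 and PTGER4, which raise cyclic AMP, and PTGER3, which mainly lowers it, and HPGD starts its breakdown. The members described here are these 9 genes, chosen by symbol as synthesis, receptor and breakdown genes of PGE2, and all 9 were found among the 20881 protein-coding genes measured.

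RNA was sequenced from 45 libraries of equine cells (Equus caballus), 12 of MSC and 11 each of synoviocytes, chondrocytes and macrophages. Bone marrow MSC of 3 horses labelled PC, 99 and 92 (aged 3 to 4 years) were untreated, given the TLR3 agonist poly I:C, given the STING agonist 2′3′-cGAMP, or given CpG, with 1 library for each horse and condition. The agonist dose is 10 ng/mL for 2 h in the sample labels, whereas the series description and methods have the same number in µg/mL. The CpG libraries are known from their labels alone. The joint cells had no replicate horses, the methods giving 1 donor horse, and it is not clear whether the 3 cell types share it, so a part of the horse in differences between cell types was not tested. They were synoviocytes from femoropatellar synovium, chondrocytes from femoropatellar cartilage, and macrophages derived from blood monocytes. In each joint cell type, 9 libraries came from cells that received the cytokines IL-1β and TNF-α and diluted MSC conditioned medium (MSC-CM), and that were washed and kept for another day in fresh medium before RNA was taken. The methods describe cytokines and MSC-CM together for a day, and the sources used here differ on whether the cytokines were washed off first. The medium was from MSC that were resting, activated through TLR3 (TLR-MSC-CM) or activated through STING (STING-MSC-CM), and the donors of the MSC are labelled PC, ORC and AG1, each with 1 library a medium. How these labels relate to the horses 99 and 92 is not given in the sources used here. A further library had the cytokines only and another had no addition. In their titles these single libraries carry a donor label as well, ORC in each case except PC for synoviocytes with cytokines only. What it stands for in cells without MSC-CM is not given in the sources used here. The cytokine dose is given as 20 ng/mL each for synoviocytes and, for macrophages, as 10 ng/mL in the labels and 20 ng/mL in the methods. For chondrocytes the labels give no dose, and the methods refer to the stimulation of synoviocytes. Since the joint cells of a type share 1 horse, p-values between media or between cell types measure the spread between MSC donors and cultures only.

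Levels are given as CPM, the count of a gene divided by the total count of its library and scaled to a common total. Library totals ran from 23525704 to 54103873 counts, so that 3 counts, taken as the floor of detection, stood for 0.0554 to 0.128 CPM. CPM is not corrected for gene length, so levels are compared between libraries and never between genes. Macrophage libraries held all 12 macrophage markers, with CSF1R at 444 to 875 CPM, and CSF1R did not pass 0.304 CPM elsewhere. Not all of the list was silent elsewhere. Its sum was 9526 to 12940 CPM in macrophages, 12.8 to 19.9 CPM in synoviocytes and 11.1 to 40.7 CPM in chondrocytes. In MSC it was 12.9 to 17.0 CPM untreated, 11.0 to 139 CPM with the TLR3 agonist and 54.6 to 325 CPM with the STING agonist. Macrophage libraries also held the 6 lymphocyte markers, with CD3E at a mean of 81.3 CPM. In chondrocytes COL2A1, which encodes type II collagen of cartilage, did not pass 0.368 CPM. ACAN, at 6.12 to 101.1 CPM, lay above the 0.477 to 3.47 CPM of synoviocytes, with its highest value in the library with no addition. Of 12 chondrocyte markers 5 had a mean of at least 1 CPM in chondrocytes, and 5 also in synoviocytes. Their sums were 44.7 to 325 and 10.49 to 24.85 CPM. Synovial fibroblast markers summed to 42970 to 76170 CPM in chondrocytes and 69700 to 85120 CPM in synoviocytes, which overlap. THY1 and CD44 were present and PTPRC at or under 0.239 CPM in every MSC library.

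Some libraries stood apart. The MSC library labelled TLR3 agonist from horse 92 had 62.5 CPM summed over 10 interferon response genes, against 2883 and 5363 CPM in the other TLR3 libraries and 66.0 to 83.0 CPM in the untreated ones. The 3 chondrocyte libraries with media of donor ORC also differed from the other 6, as given further on. Both were singled out after their values were seen.

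PTGS2, the inducible cyclooxygenase, varied widely between cell types and conditions, from 0.273 to 3821 CPM over all 45 libraries. Chondrocytes with no addition had 5.87 CPM and chondrocytes with cytokines only 3561 CPM. The corresponding synoviocyte values were 34.3 and 649 CPM. Macrophages held PTGS2 at much the same level in both, at 30.2 and 32.0 CPM. Across the 9 libraries with MSC-CM, PTGS2 was 351 to 692 CPM in synoviocytes, 127 to 3821 CPM in chondrocytes and 20.0 to 56.3 CPM in macrophages. In MSC it was 0.273 to 14.4 CPM, so that every MSC library lay below every macrophage library. MSC and joint cells were not tested against each other.

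**Figure D1:**
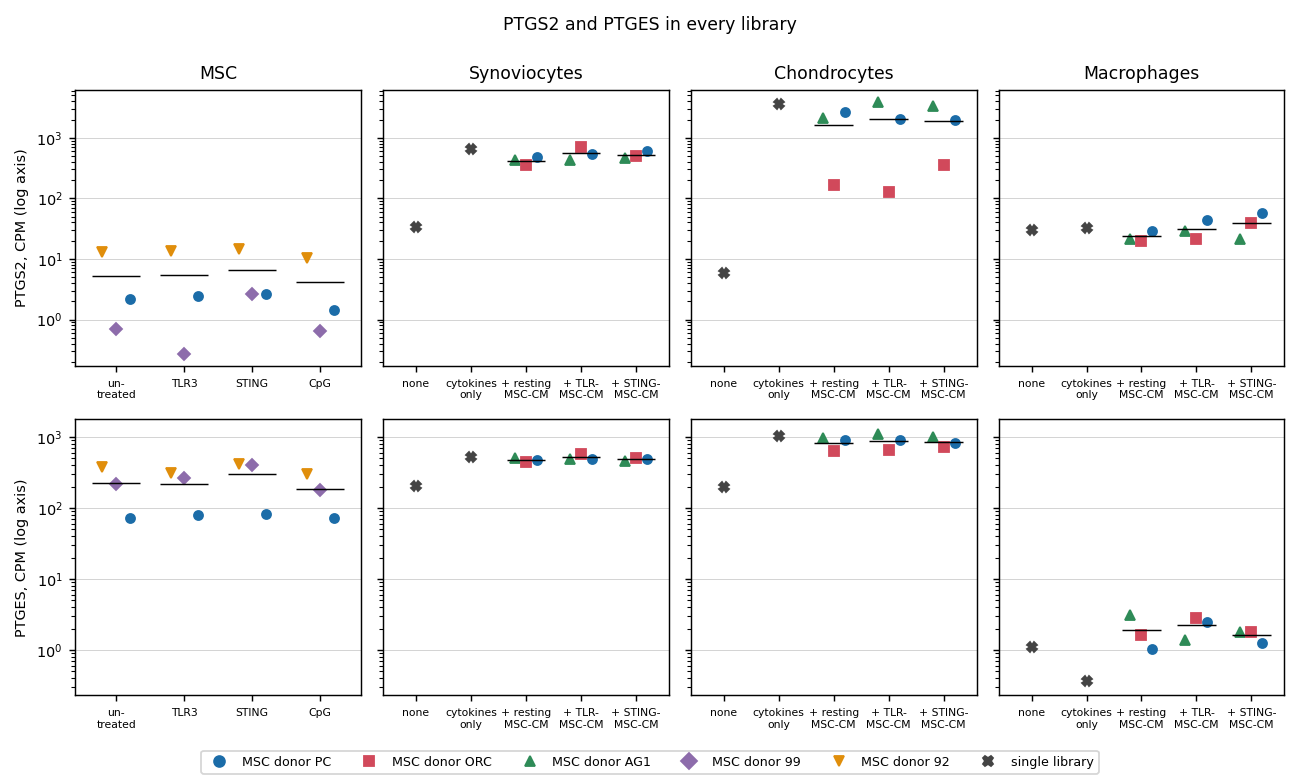
PTGS2 (top) and PTGES (bottom) in each library, as CPM on log axes, in MSC by agonist and in joint cells by addition; each point is 1 library, with its colour and shape giving the MSC donor, and the black line is the mean of 3 libraries. PTGS2 sat at 34.3 and 5.87 CPM in the synoviocyte and chondrocyte libraries with no addition and far above that in all others of those cells, with the ORC chondrocyte libraries between.

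PTGES, the microsomal PGE2 synthase that is induced together with PTGS2 in many cells, was abundant in 3 of the 4 cell types. It was at 449 to 572 CPM in synoviocytes and 629 to 1107 CPM in chondrocytes with MSC-CM, and at 73.2 to 417 CPM in MSC. Macrophages had 0.368 to 3.09 CPM, from 9 to 125 counts a library. The macrophages therefore held PTGS2 transcripts with few PTGES transcripts beside them, whereas the MSC held PTGES with little PTGS2.

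PTGES2 and PTGES3 differed far less. PTGES2, a membrane-associated PGE2 synthase, was at 41.8 to 68.0 CPM in MSC, 18.7 to 22.5 CPM in synoviocytes, 17.3 to 26.2 CPM in chondrocytes and 58.2 to 80.2 CPM in macrophages. PTGES3, the cytosolic synthase that is also the p23 cochaperone of HSP90, stayed within 162 to 329.5 CPM over all 45 libraries.

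PTGS1, the constitutive cyclooxygenase, was close to the floor. Its counts were 0 to 34 in MSC, 1 to 11 in synoviocytes, 0 to 5 in chondrocytes and 6 to 23 in macrophages, and it passed 3 counts in 29 of the 45 libraries. The highest level was 0.714 CPM, in MSC of horse 99 with the TLR3 agonist. HPGD, the dehydrogenase that inactivates PGE2, was also near the floor or at 0. It had 0 to 13 counts in MSC, 0 counts in each synoviocyte and chondrocyte library, and at most 1 count in macrophages. A count of 0 here allows a level of up to 0.0554 to 0.128 CPM, depending on the library.

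Of the receptors, PTGER4 was measured in every library and PTGER2 stood out in macrophages. PTGER2 was at 10.6 to 18.3 CPM in macrophages, against 0.284 to 1.00 CPM in synoviocytes, 0.119 to 0.835 CPM in chondrocytes and 0.163 to 1.74 CPM in MSC. PTGER4 was at 12.4 to 20.1 CPM in macrophages, 14.3 to 29.3 CPM in synoviocytes, 8.64 to 17.2 CPM in chondrocytes and 2.24 to 14.6 CPM in MSC. PTGER3 was listed at 0 in all MSC and chondrocyte libraries, and it had at most 14 counts in synoviocytes and in macrophages.

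**Figure D2:**
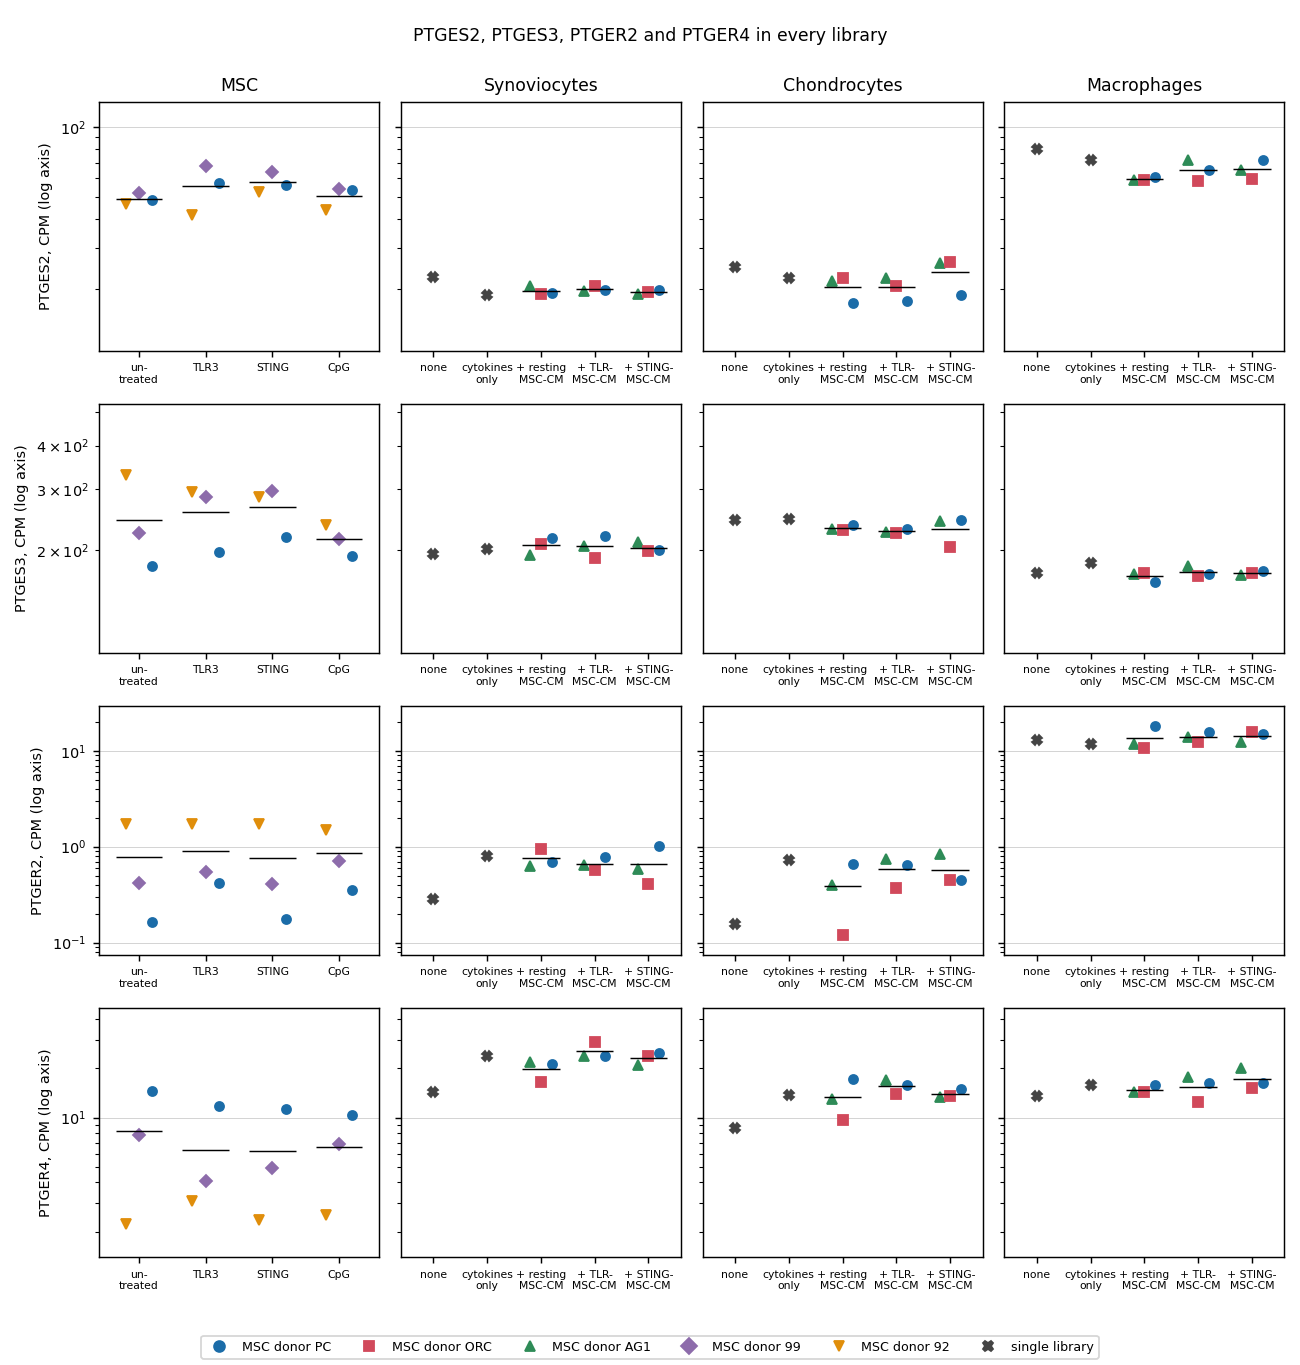
PTGES2, PTGES3, PTGER2 and PTGER4 in each library, as CPM on log axes, with points, colours and lines as in the plot of PTGS2 and PTGES. PTGER2 was at 10.6 CPM or more in every macrophage library and at 1.74 CPM or less in every other library, and PTGES3 moved little anywhere.

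The question of what the cytokines alone did to these genes rests on 1 library with cytokines and 1 without in each joint cell type. There is therefore no test, and the intervals given are exact 95% intervals of the ratio that cover counting error only. The synoviocyte libraries compared carry different donor labels in their titles, PC with cytokines and ORC without, and the part of this was not tested. In synoviocytes 3 of the 6 members with enough counts were at least 2-fold higher with the cytokines and none lower, where 4.62% of 13255 genes were 2-fold higher. In chondrocytes it was again 3 of 6 higher and none lower, where 6.8% of 13154 genes were higher. In macrophages 0 of 7 members were 2-fold higher and 1 was lower, where 2.57% and 1.71% of 13094 genes were.

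PTGS2 had the highest ratio of the members in synoviocytes and chondrocytes. In chondrocytes it went from 152 counts with no addition to 140861 counts with cytokines, a ratio of 607 (interval 518 to 716), and 1 other gene of the 13154 had a higher one. In synoviocytes it went from 1086 to 17890 counts, a ratio of 18.9 (17.8 to 20.1), with 13 genes higher. In macrophages the ratio was 1.06 (0.958 to 1.17), from 783 and 782 counts. The macrophage libraries also showed no 2-fold difference in any of the 13 genes of the cytokine response list compared there, whereas 11 of 15 were at least 2-fold higher in synoviocytes and 11 of 15 in chondrocytes. In chondrocytes 4 of 7 chondrocyte markers were at least 2-fold lower with the cytokines and 1 was higher, with ACAN at 6.12 against 101.1 CPM and SOX9 at 8.95 against 48.8 CPM. Of synovial fibroblast markers 2 of 10 were lower in synoviocytes and 3 of 10 in chondrocytes, and of mesenchymal stromal markers 3 of 8 in each. THY1, which is on both of these lists, was at 315 against 690.4 CPM in synoviocytes and 44.8 against 188 CPM in chondrocytes. The part of these markers in the PTGS2 and PTGES values was not tested.

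PTGES was 5.22-fold higher in chondrocytes (5.07 to 5.37), at 1047 against 201 CPM, and 2.55-fold higher in synoviocytes (2.48 to 2.63), at 523.5 against 205 CPM. In macrophages it was 3.04-fold lower (1.40 to 7.30), on 9 counts against 29. PTGER2 was higher on few counts, by 4.75-fold in chondrocytes (1.67 to 18.6, 29 against 4 counts) and 2.81-fold in synoviocytes (1.24 to 6.93, 22 against 9 counts). PTGER4 was at a ratio of 1.603 in chondrocytes (1.37 to 1.88) and of 1.66 in synoviocytes (1.47 to 1.87), both short of 2-fold. PTGES2 and PTGES3, by contrast, lay between 0.831 and 1.07 in all 3 cell types.

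**Figure D3:**
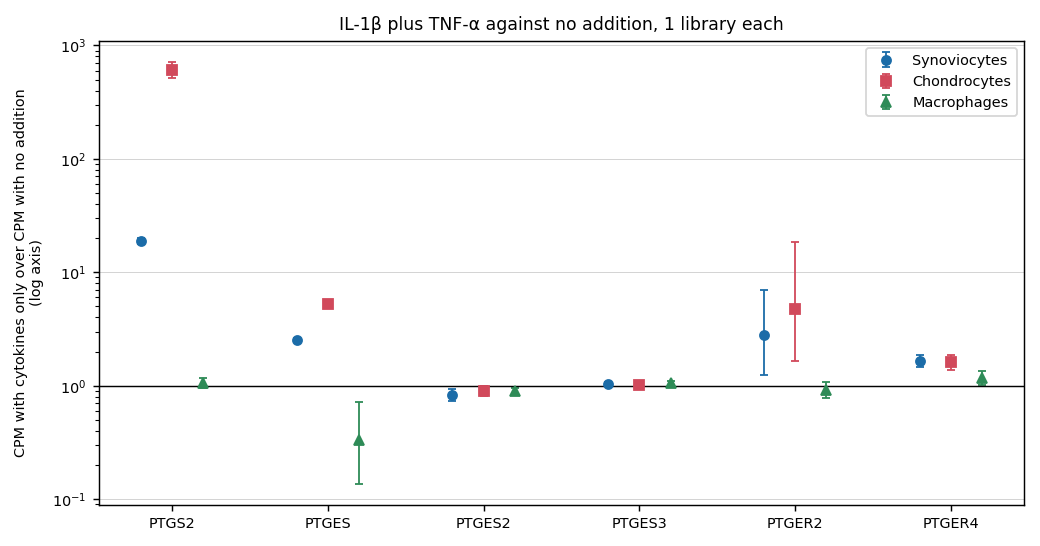
Ratio of CPM with cytokines only to CPM with no addition, on a log axis, for 6 members in synoviocytes, chondrocytes and macrophages, from 1 library each; bars are exact 95% intervals for counting error. PTGS2 was at 607 in chondrocytes, 18.9 in synoviocytes and 1.06 in macrophages, and PTGES2 and PTGES3 sat near 1 in all of them.

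Genes around the pathway were described the same way. Of 13 arachidonate release genes compared, 4 were at least 2-fold higher with the cytokines in synoviocytes and none lower. They were PLA2G2A, a secreted phospholipase, at 349 against 7.11 CPM (49.1-fold), PLA2G4A, the cytosolic phospholipase that feeds the cyclooxygenases, at 220 against 52.9 CPM (4.16-fold), PLA2G5 (3.05-fold) and ACSL4 (2.45-fold). In chondrocytes 4 of 13 were higher, among them PLA2G2A (15.2-fold), PLA2G4A (9.31-fold) and ACSL4 (4.13-fold), and 3 were lower, among them MGLL, which frees arachidonate from a monoglyceride, at a ratio of 0.202.

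The synthase of another prostanoid went the other way. PTGIS, prostacyclin synthase, was at 10.8 against 37.9 CPM in synoviocytes and at 3.72 against 18.4 CPM in chondrocytes. Of the prostanoid synthases and reductases outside the members, 6 were compared in synoviocytes and 7 in chondrocytes. PTGIS was the only gene of these past 2-fold in either. The prostacyclin receptor PTGIR had 97 counts with cytokines in chondrocytes and 0 without. Genes that cyclic AMP is known to induce were at least 2-fold higher in 5 of 13 cases and lower in 0 in synoviocytes, where 4.62% of all genes were higher and 4.1% lower. In chondrocytes they were higher in 6 of 12 and lower in 1, where 6.8% of all genes were higher and 8.07% lower. Of these, NR4A2 was at 146 against 33.4 CPM (4.38-fold) in synoviocytes and 197 against 33.9 CPM (5.79-fold) in chondrocytes, and PDE4D was 2.98-fold and 3.55-fold higher. Some of these genes, NR4A2 among them, are also known to respond to inflammatory cytokines directly.

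The single library with cytokines only fell among the libraries with MSC-CM for most members. In synoviocytes the cytokines-only value of PTGS2, 649 CPM, lay within the 351 to 692 CPM of the 9 libraries with media. In chondrocytes and macrophages PTGS2 also lay within that range, and the mean with resting media was 0.460 and 0.735 times the cytokines-only value, against 0.644 in synoviocytes. Of the 8 members compared in synoviocytes 1 fell outside the range, PTGES2, at 18.7 CPM with cytokines only and 19.0 to 20.6 CPM with media, where 6.97% of genes lay below all 9. In chondrocytes 1 of 7 fell outside, PTGES3, at 247 CPM against 204 to 244 CPM, where 13% of genes lay above all 9. After TMM scaling neither of these lay outside in its cell type. In macrophages PTGES3 lay above all 9, as for 8.24% of genes, and PTGES below all 9, at 0.368 CPM against 1.04 to 3.09 CPM, as for 12.2% of genes. Both stayed outside after TMM scaling in macrophages, and PTGES2 then lay above all 9 as well.

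In chondrocytes the MSC donor of the medium went with the largest difference in PTGS2 among the libraries with media. With media of donor ORC it was at 168 CPM (resting), 127 CPM (TLR) and 349.7 CPM (STING). With media of donor PC it was at 2653, 2066 and 1931 CPM, and with media of donor AG1 at 2093, 3821 and 3287 CPM. The ORC libraries thus did not overlap the other 6, with means of 215 ± 119 CPM (SD, n = 3) and 2642 ± 767 CPM (SD, n = 6), a 12.3-fold difference. All 3 ORC values still lay above the 5.87 CPM of the library with no addition. That library and the cytokines-only library, at 3561 CPM, have ORC in their titles as well. On log2(CPM + 1) the difference between the 3 ORC libraries and the other 6 was −3.70, and 5 of 14304 genes had a lower one.

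PTGES was the other member that did not overlap, at 629 to 719 CPM with ORC media and 826 to 1107 CPM with the others. The remaining 5 members compared overlapped, with PTGER4 at 9.69 to 13.9 CPM against 13.1 to 17.2 CPM. Lack of overlap was not particular to ORC media in chondrocytes. PTGES was also without overlap and higher with AG1 media, at 957 to 1107 CPM against 629 to 907 CPM, where 7.66% of genes were higher, and PTGES2 was lower with PC media, at 17.3 to 18.8 CPM against 20.6 to 26.2 CPM, where 4.55% of genes were lower. For ORC media 2 of 7 members were lower without overlap, against 22.1% of all genes, and 0 higher, against 15.2%. Only 0.412% of genes were lower by at least 2 on the log2 scale, as PTGS2 was. No test was run, since the ORC libraries were chosen by how they looked.

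PTGS2 moved with a wider set of genes in those libraries. Of 15 cytokine response genes 14 were lower without overlap and none higher, with a median difference of −1.72 against −0.0359 over all genes on log2(CPM + 1). CXCL8, a neutrophil chemokine, was at 34.3 to 181 CPM with ORC media and 887 to 3376 CPM with the others. PLA2G4A was at 102 to 132 CPM against 247 to 301 CPM. PTGIR was at 0.119 to 0.399 CPM against 1.58 to 2.57 CPM. The pattern did not hold for all induced genes: PLA2G2A was higher with ORC media, at 286 to 338 CPM against 191 to 226 CPM. Among chondrocyte markers 1 of 10 was lower and 2 were higher without overlap. SOX9, a chondrocyte transcription factor, was at 42.1 to 67.6 CPM with ORC media and 7.53 to 10.6 CPM with the others, where the library with no addition had 48.8 CPM. The part of these differences in the PTGS2 level was not tested.

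Media of donor ORC did not set synoviocytes or macrophages apart in these genes. In synoviocytes PTGS2 was at 351 to 692 CPM with ORC media and 424.5 to 602 CPM with the others. In macrophages it was at 20.0 to 39.8 CPM and 21.1 to 56.3 CPM. No member was without overlap between ORC and other media in synoviocytes, where 0.631% of genes were lower and 2.45% higher, or in macrophages, where 2.9% were lower and 1.34% higher.

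**Figure D4:**
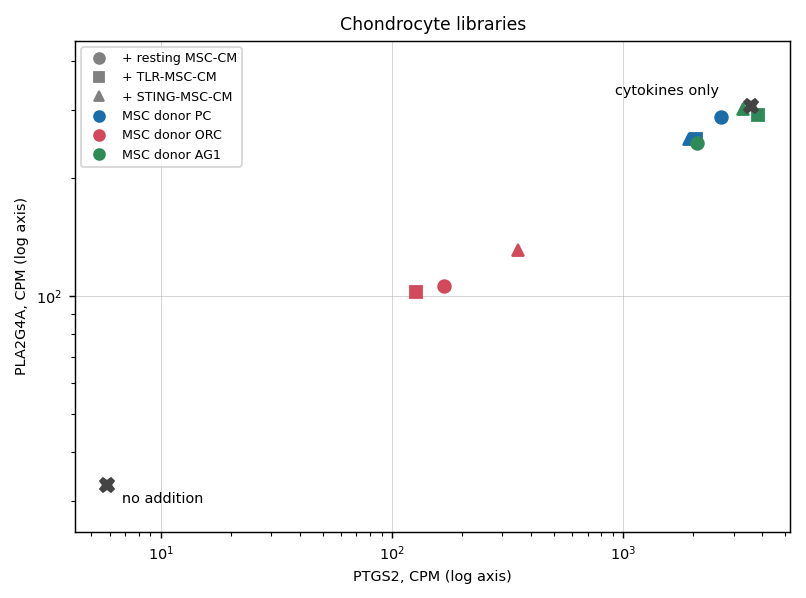
PTGS2 and PLA2G4A in the 11 chondrocyte libraries, as CPM on log axes; colour gives the MSC donor of the medium, shape the medium, and crosses the single libraries with no addition and with cytokines only. The library with no addition, the 3 ORC libraries (127 to 349.7 CPM of PTGS2) and the other 7 formed separate clusters along both axes.

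The design asks next whether media of activated MSC changed joint cells compared with media of resting MSC. No member passed an adjusted p of 0.05 in any of the 9 comparisons of media (quasi-likelihood test of edgeR, adjusted over all genes by Benjamini and Hochberg), and in each the share of all genes called was 0%. DESeq2 called no member either. At an unadjusted p under 0.05 there were 2 calls among members, PTGS2 and PTGER4, both in synoviocytes with TLR-MSC-CM against resting MSC-CM, where 10% of 14584 genes passed that level.

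In synoviocytes PTGS2 was at 479, 351 and 424.5 CPM with resting media of donors PC, ORC and AG1 and at 549.6, 692 and 428 CPM with TLR media. The groups overlapped, although each donor's TLR value was above its resting value, for AG1 by little. The log2 fold change was 0.40 ± 0.15 (SE; edgeR unadjusted p = 0.0197, adjusted p = 0.494). The ratio of TLR to resting media was 1.97 for donor ORC, 1.15 for PC and 1.01 for AG1, and without the TLR library of ORC the log2 fold change was 0.23. With STING media PTGS2 was at 602, 498 and 469 CPM, a log2 fold change of 0.31 ± 0.15 (edgeR adjusted p = 0.634).

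PTGER4 in synoviocytes was at 21.2, 16.6 and 21.9 CPM with resting media of PC, ORC and AG1 and at 23.8, 29.3 and 23.8 CPM with TLR media. Its groups did not overlap, as for 6.25% of genes in that direction, and 0 of 8 members were lower without overlap, against 4.96%. The log2 fold change was 0.36 ± 0.12 (edgeR unadjusted p = 0.00978, adjusted p = 0.494), and without the resting library of donor ORC it was 0.23. PTGES moved by 0.12 ± 0.077 and PTGER2 by −0.16 ± 0.38, neither called. STING against TLR media differed by −0.093 ± 0.15 for PTGS2. With STING media 0 of 8 members passed an unadjusted p of 0.05 against resting media, where 7.6% of genes did, and 0 were without overlap, where 8.62% were higher and 5.17% lower. Against TLR media it was again 0 of 8, where 2.02% passed that p and 4.35% were higher and 2.91% lower without overlap.

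Chondrocytes gave wide errors for PTGS2 in a fit with no donor term. Of its variance of log2(CPM + 1) 94.4% lay between donors, against a median of 58.8% over all genes tested. Within donors PC, ORC and AG1, PTGS2 was at 0.779, 0.7565 and 1.83 times its resting value with TLR media. With STING media PTGS2 was at 0.728, 2.085 and 1.57 times that value in the same order. Its log2 fold change was 0.29 ± 1.18 with TLR media and 0.14 ± 1.18 with STING media (edgeR adjusted p = 1 for both), from means of 1638 ± 1304, 2005 ± 1848 and 1856 ± 1470 CPM (SD, n = 3) with resting, TLR and STING media. Without the 3 ORC libraries the values were 0.31 and 0.092, and no member passed an adjusted p of 0.05 (edgeR). PTGES, PTGES2 and PTGES3 stayed within 0.2 of 0 in both comparisons, and PTGER2 was at 0.57 ± 0.57 and 0.53 ± 0.57, or 0.40 and 0.30 without the ORC libraries. At an unadjusted p under 0.05, 0 of the 7 members tested passed in any of the 3 chondrocyte comparisons, against 0.559%, 0.909% and 0.811% of genes. None was without overlap, where 1.45% of genes were higher and 2.17% lower with TLR than with resting media, 2.47% and 1.33% with STING than with resting media, and 2.49% and 1.06% with STING than with TLR media.

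In macrophages PTGS2 was at 29.4, 20.0 and 21.1 CPM with resting media of PC, ORC and AG1, at 44.2, 21.2 and 28.9 CPM with TLR media and at 56.3, 39.8 and 21.4 CPM with STING media. Within each donor it was 1.02-fold to 1.99-fold higher with STING than with resting media, but the groups overlapped. The log2 fold change was 0.72 ± 0.34 with STING (edgeR adjusted p = 0.907) and 0.36 ± 0.34 with TLR media (edgeR adjusted p = 0.998). Without the STING library of donor PC the former was 0.38. With the MSC donor as a term it was 0.67 (edgeR adjusted p = 0.137). PTGES, on 37 to 125 counts a library, moved by 0.19 ± 0.41 and −0.28 ± 0.42. The 2 other synthases and the receptors PTGER2 and PTGER4 stayed within 0.2 of 0. At an unadjusted p under 0.05, 0 of 8 members passed, against 2.13% of genes with TLR media, 4.76% with STING media and 6.6% between them. None was without overlap, where 4.97% of genes were higher and 1.43% lower with TLR than with resting media, 5.64% and 4.43% with STING than with resting media, and 4.74% and 8.09% with STING than with TLR media.

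**Figure D5:**
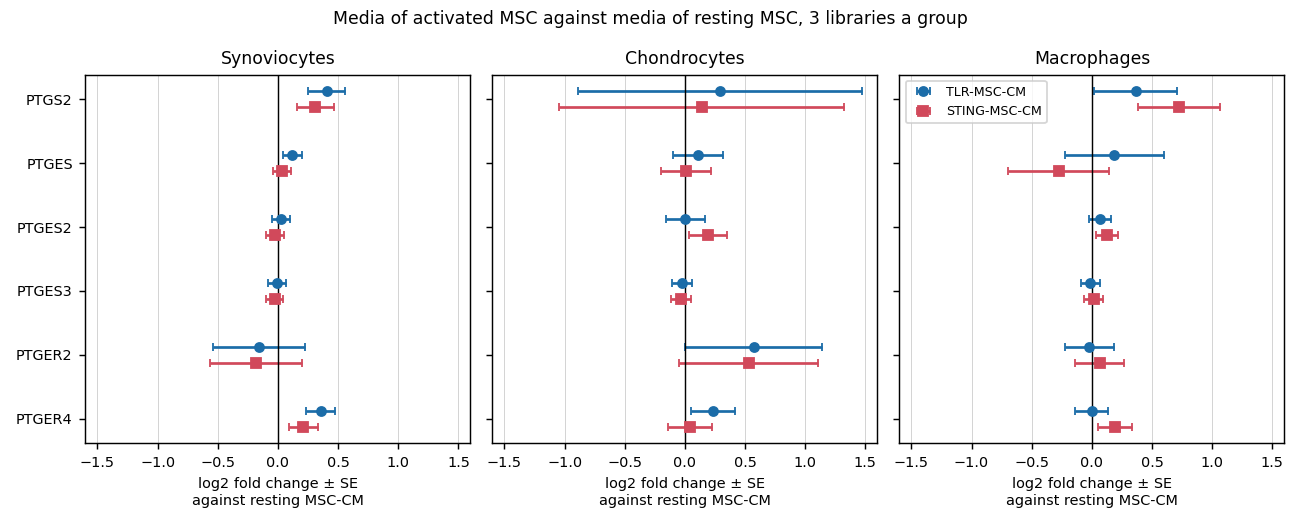
Log2 fold change with its standard error (bars) for 6 members with TLR-MSC-CM (circles) and STING-MSC-CM (squares) against resting MSC-CM, in 3 joint cell types with 3 libraries a group. None passed an adjusted p of 0.05, and the bars of PTGS2 in chondrocytes spanned 1.18 to each side with no donor term.

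Whether a change differed between cell types was tested as an interaction in 1 fit of all 27 libraries with media. No member passed in any of 6 contrasts, and 0% of 16584 genes did. For PTGS2 with TLR media, the change in chondrocytes minus that in synoviocytes was −0.12 ± 1.13. The change in macrophages minus that in synoviocytes was −0.047 ± 1.15. In this fit, without a donor term, all cell types share an estimate of the spread of a gene. The wide spread of PTGS2 in chondrocytes thus enters both errors, which exceed those of the fits within synoviocytes and macrophages. The lack of a call therefore does not show that cell types changed alike.

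Cell types were compared in cells with cytokines and resting MSC-CM. Chondrocytes and synoviocytes did not differ in any of the 8 members tested at an adjusted p of 0.05, where 18.1% of 15599 genes did (edgeR), although 4 of the 8 passed an unadjusted p of 0.05, where 31.4% did. PTGS2 was at 168, 2093 and 2653 CPM in chondrocytes and 351, 424.5 and 479 CPM in synoviocytes, a log2 fold change of 1.95 ± 0.69 (edgeR adjusted p = 0.079). Without the ORC chondrocyte library it was 2.48 (edgeR adjusted p = 1.03e-05), and PTGES then passed too (edgeR adjusted p = 0.0165). PTGES was at 831 ± 177 and 476 ± 25.8 CPM (SD, n = 3), a log2 fold change of 0.79 ± 0.27 (edgeR adjusted p = 0.0677). The groups did not overlap for 2 members that were higher in chondrocytes, PTGES and PTGES3, where 18.1% of genes were, and for 2 that were lower, PTGS1 and PTGER3, both at or near the floor, where 18.9% were. PTGER4 was lower in chondrocytes by a log2 fold change of −0.59 ± 0.20 (edgeR adjusted p = 0.0625). PTGER4 passed without the PC chondrocyte library or without the ORC synoviocyte library (edgeR adjusted p = 0.0178 and 0.0497). DESeq2 called PTGES and PTGER4 (adjusted p = 0.0259 and 0.0283).

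Macrophages differed from both other cell types in most members. Against synoviocytes 5 of 8 members passed, 2 higher and 3 lower, where 71.6% of genes passed. Against chondrocytes 7 of 8 passed, 4 higher and 3 lower, where 71.5% did. The members' shares were thus near those of all genes. How the sizes of their differences rank among all genes was not tested.

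PTGES was lower in macrophages by a log2 fold change of −7.97 ± 0.37 against synoviocytes (edgeR adjusted p = 1.51e-08) and −8.75 ± 0.38 against chondrocytes (edgeR adjusted p = 9.22e-09), from 1.92 ± 1.06 CPM (SD, n = 3). PTGS2 was lower by −4.18 ± 0.76 (edgeR adjusted p = 5.67e-04) and −6.13 ± 0.84 (edgeR adjusted p = 6.55e-05). PTGES3 was lower by smaller amounts, −0.32 ± 0.087 and −0.48 ± 0.087 (edgeR adjusted p = 0.00662 and 5.46e-04). In bulk RNA such differences cannot be told apart from differences in the share of cells that hold the transcript.

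PTGER2 was higher in macrophages, at 13.5 ± 4.16 CPM (SD, n = 3), by a log2 fold change of 4.14 ± 0.39 against synoviocytes (edgeR adjusted p = 3.28e-06) and 5.05 ± 0.41 against chondrocytes (edgeR adjusted p = 1.17e-06). PTGES2 was higher by 1.58 ± 0.11 and 1.54 ± 0.11 (edgeR adjusted p = 3.73e-07 and 4.50e-07). PTGS1 passed against chondrocytes (edgeR adjusted p = 0.0066), on 8 to 18 counts a library against 0 to 2. PTGER3 passed against chondrocytes, where it had no counts, and was at least 1.99-fold higher there when set against 3 counts a library. PTGER4 did not pass in either comparison, at −0.46 ± 0.20 (edgeR adjusted p = 0.0576) and 0.14 ± 0.20. Against synoviocytes it passed without the ORC synoviocyte library (edgeR adjusted p = 0.0287). The lymphocyte markers that were present in the macrophage libraries passed as higher in 6 of 6 cases in both comparisons, and their part in these differences was not tested.

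Among the enzymes upstream of and beside the members, list counts were again read against the 36.6% of all genes that were higher and 35.1% that were lower in macrophages than in synoviocytes. Of 13 arachidonate release genes 5 were higher and 6 lower in macrophages than in synoviocytes. PLA2G2A was at 0.747 ± 0.319 against 276 ± 53.3 CPM (SD, n = 3) and PLA2G4A at 28.7 ± 8.76 against 192 ± 15.2 CPM. PTGIS was at 0.0336 against 12.1 CPM, while TBXAS1, thromboxane synthase, was higher at 2.57 against 0.0465 CPM. In the lipoxygenase pathway, which turns arachidonic acid into leukotrienes, 7 of 8 genes were higher and none lower, with the leukotriene B4 receptor LTB4R at 192 ± 9.14 against 0.495 ± 0.288 CPM. Between chondrocytes and synoviocytes ABCC4, an exporter that carries prostaglandins out of cells, was higher in chondrocytes at 33.2 ± 1.24 against 10.3 ± 1.18 CPM, and PTGIS and the prostaglandin F receptor PTGFR were lower.

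In the MSC themselves no member passed an adjusted p of 0.05 with either agonist, with CpG, or between the agonists (edgeR), and 0% of all genes did. At an unadjusted p under 0.05, 0 of 8 members passed in each, against 1.15% of 14872 genes with the TLR3 agonist, 2.1% with the STING agonist, 0.242% between the agonists and 0.305% with CpG. DESeq2 called no member either. The 10 interferon response genes all passed that unadjusted level with both agonists, at median log2 fold changes of 5.08 with the TLR3 agonist, the horse 92 library included, and 6.14 with the STING agonist. Without that library 51 of 14772 genes (0.345%) passed an adjusted p of 0.05 with the TLR3 agonist (edgeR), and 0 of them were members.

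In MSC 4 of the members, PTGS2, PTGES, PTGER2 and PTGER4, had the largest shares of their variance between horses. PTGS2 was at 10.2 to 14.4 CPM in the 4 libraries of horse 92, 1.45 to 2.59 CPM in those of PC and 0.273 to 2.62 CPM in those of 99. PTGES was at 306 to 417 CPM in 92, 180 to 408 CPM in 99 and 73.2 to 83.2 CPM in PC. PTGER4 ran the opposite way, at 2.24 to 3.10 CPM in 92, 4.10 to 7.83 CPM in 99 and 10.3 to 14.6 CPM in PC. Between horses lay 91.8% of the variance of log2(CPM + 1) for PTGS2, 91.9% for PTGES, 95.1% for PTGER2 and 92.3% for PTGER4, against a median of 58.9% over all genes. The share was 64.7% for PTGES3 and below that median for PTGES2 (56.1%), HPGD (43.9%) and PTGS1 (33.8%), the latter pair on few counts.

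With the STING agonist PTGS2 was higher than in the untreated cells of the same horse in 3 of 3, by 1.118-fold in 92, 1.18-fold in PC and 3.78-fold in 99, the last from 25 to 102 counts. PTGES was 1.10-fold, 1.13-fold and 1.85-fold higher in the same order. The log2 fold changes were 0.29 ± 1.37 for PTGS2 and 0.43 ± 0.77 for PTGES (edgeR adjusted p = 1). With the horse as a term they were 0.78 and 0.39 (edgeR adjusted p = 0.681 and 0.539). PTGES2 was the member whose STING and untreated groups did not overlap, at 52.4 to 64.0 CPM against 46.3 to 51.6 CPM, as for 4.03% of genes in that direction, and none was lower without overlap, where 1.94% of genes were.

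With the TLR3 agonist PTGS2 had ratios to the untreated cells of 1.05 in 92, 1.10 in PC and 0.395 in 99, the last on 13 against 25 counts. The log2 fold change was 0.035 ± 1.37, and −1.95 without the library of horse 92 that showed no interferon response, a value that then sets 2 horses with low PTGS2 against 3. Neither passed (edgeR adjusted p = 1 for both). PTGS1 had the largest log2 fold change of the members, 1.96 ± 1.29 (edgeR adjusted p = 1), on 4 to 34 counts a library against 2 to 8. It was 2.38 without the library of horse 92 (edgeR adjusted p = 1), in which PTGS1 was at 0.687 times the untreated level. No member was without overlap, where 0.867% of genes were higher and 1.09% lower, nor between the agonists, where 1.63% were higher with STING and 0.572% lower. With CpG PTGS2 was at 0.662 to 0.947 times the untreated value of the same horse, a log2 fold change of −0.37 ± 1.43 (edgeR adjusted p = 1), and 0 of 8 members were without overlap, where 1.15% of genes were in each direction.

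Genes whose levels went most closely with PTGS2 were named by the 3 highest Pearson correlations of log2(CPM + 1) in each cell type, among genes with a mean of at least 5 CPM. The libraries of a cell type share a horse or horses and fall into clusters, so r is a description only. Over the 11 chondrocyte libraries PLA2G4A (r = 0.998), the cytokine IL6 (r = 0.996) and UGCG, the glucosylceramide synthase (r = 0.995), came closest. PLA2G4A was at 33.0 CPM with no addition, 102 to 132 CPM in the ORC libraries and 247 to 307 CPM in the other 7, and IL6 ran from 207 to 4581 CPM. In synoviocytes EPAS1, LIPG and MMP12 came closest (r = 0.994, 0.994 and 0.993 over 11 libraries), with the endothelial lipase LIPG at 11.9 CPM with no addition and 82.8 CPM or more in the others. In macrophages the closest were EPRS1, DRAM1 and PAPSS1 (r = 0.959, 0.952 and 0.947 over 11 libraries), and in MSC they were FOXP4, GRK5 and PSD4 (r = 0.987, 0.987 and 0.981 over 12).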

How the data were processed

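The deposited values were raw counts of reads per protein-coding gene in 45 libraries, in a table for MSC and a table for joint cells. Per the methods and the submitters' processing notes, the authors made the counts with HTSeq 0.11.0 from STAR alignments to the EquCab3.0 genome, after trimming by Cutadapt 1.12. Of the 20881 genes, 3970 are listed by Ensembl identifier only. Gene lengths and sequences of that build were not used here.

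CPM was computed on library totals, which were 23525704 to 54103873 counts. Groups were taken from the labels. Groups of 3 libraries were compared with edgeR 4.0.16 (quasi-likelihood test, TMM scaling, genes with at least 10 counts over the libraries of a fit, two-sided) in R 4.3.3, with p-values adjusted by Benjamini-Hochberg over all genes tested and a threshold of 0.05. The donor was not a term, since the study's methods name none, and was added as an alternative. The study's figure legends do describe the joint cell replicates as matched. The groups compared hold the same donors, so errors and adjusted p-values of the main fits include the spread between donors. The 3 conditions of a cell type shared a fit, cell types were compared in a fit of the resting media, and interactions in a fit of all 27 libraries with media. The script was tested on simulated counts with known changes in well-counted genes, with a small uniform spread and no donor effect. That test does not show how well changes are found at the spread of these data. Single libraries were compared by the ratio of their CPM with an exact (Clopper-Pearson) 95% interval, with 3 counts as the floor, and called past 2-fold. Intervals and floors cover counting error only. Descriptions used log2(CPM + 1). Alternatives were DESeq2 1.42.0, other scaling and count filters, the donor as a term, a 4-fold threshold and leaving out each library. Tables and plots were made with Python 3.11.15, pandas 2.3.3, scipy 1.17.1 and matplotlib 3.10.9.

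Whether libraries of the same donor label deviated together from their group means was checked by correlation. Every pair was above 0.1 in MSC (0.624 to 0.833), chondrocytes (0.355 to 0.718) and macrophages (0.138 to 0.301). In MSC and macrophages each was also above the highest correlation with another donor. In chondrocytes ORC pairs were at 0.692 to 0.718, against at most −0.417 with another donor. The PC library with resting media correlated no more with its own donor (0.403 and 0.355) than with another (0.409 and 0.37). The label thus paired libraries in MSC and macrophages, and in chondrocytes clearly for ORC only. The label did not pair libraries in synoviocytes or across cell types. The rule for named genes was all 9 members in every library, up to 4 genes of a related list per comparison (smallest p, or largest ratio for single libraries), and the 3 genes most correlated with PTGS2 in each cell type. Genes named for the ORC chondrocyte libraries and as markers were chosen after their values were seen. Members and lists were chosen with earlier results of these data known.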

Additional observations from a re-analysis of the deposited data

How the results depend on the processing

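Of 231 counts of called members under an alternative 222 stayed within 1.5 times the reported count, and of 1723 values of single members 1678 stayed on their side of the threshold and moved by less than 1 standard error where one was fitted. Another 35 moved further, which for ratios of single libraries means a change of the 2-fold call in either direction. In the fits 10 values newly passed and no called value lost its call. No called value changed sign, while 143 values that were not called did. The exceptions among the counts were these. Between chondrocytes and synoviocytes with resting media 0 members passed, 2 with DESeq2, 2 in the replicate block fit with the MSC donor as a term (PTGES and PTGER4), and 0 to 2 on leaving out 1 library. At a 4-fold threshold 1 member in synoviocytes and 0 in macrophages differed with cytokines. With TMM scaling 0 members in synoviocytes and 0 in chondrocytes lay outside the libraries with media, while in macrophages PTGES2 was added to PTGES and PTGES3. In cell types compared on resting media the donor labels do not pair libraries (correlations of −0.0117 to 0.0979), nor within synoviocytes (−0.166 to 0.141). There the replicate block called 6 members between macrophages and synoviocytes, PTGER4 being the addition (edgeR adjusted p = 0.0234), and it changed no call of a member between media or agonists. Leaving out the 3 ORC chondrocyte libraries and the donor term within cell types were chosen after seeing the data. The data came from 1 horse for each joint cell type and 3 MSC donors. Without a donor term, errors of PTGS2 in chondrocytes and MSC exceeded 1 on the log2 scale. PTGS1, PTGER3 and HPGD were near the floor at this depth.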
